A study of Rattus norvegicus with 9 samples.

Results

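The genes described are those that encode cytosolic ribosomal proteins, the proteins that surround the ribosomal RNA in the ribosomes of the cytoplasm. They were taken by symbol: a probe set annotated to 1 gene only, with a symbol that starts with Rpl or Rps followed by a digit, p or a. The 2 pseudogenes and the 7 genes of the Rps6k kinases that share such symbols were left out. This gave 48 genes, 33 of the large and 15 of the small subunit, out of 14217 genes on the array with a probe set of their own. Where a gene had several probe sets, the one kept was chosen by its mean intensity over the 9 arrays of all groups (the highest), and no difference between groups entered the choice. A further 67 symbols of ribosomal proteins and their copies, among them Rplp1, Rpl10, Rpl22l1, Rps14, Rps19 and Rps27, were read only through probe sets annotated to several genes and are not members.

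Sprague-Dawley rats bought at 8 weeks of age and given 1 week to settle received colistin methanesulfonate (CMS). The body turns CMS into colistin, a polymyxin antibiotic known to injure kidney tubules. The 3 groups, with 3 rats each, were injected intraperitoneally once a day for 7 days with vehicle (0 mg/kg), CMS at 25 mg/kg (CMS25) or CMS at 50 mg/kg (CMS50), and otherwise shared strain, tissue and schedule. Per the labels, vehicle kidneys had no lesion, CMS25 kidneys had tubular basophilia and dilated tubules, and CMS50 kidneys had necrosis, degenerated or dilated tubules and eosinophilic casts. Whole-kidney RNA from the right side of each rat was read on 1 Affymetrix rat array, and all values are log2 intensities, so a difference of 1 is a doubling.

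Cytosolic ribosomes are built in the nucleolus, where RNA polymerase I makes the precursor of most ribosomal RNA and assembly factors fit the proteins onto it. The large subunit forms the peptide bond and the small subunit reads the message. Most messages for ribosomal proteins, and for several translation factors, begin with a C followed by an unbroken run of C and T in the gene, the 5′ terminal oligopyrimidine (TOP) tract, through which the kinase complex mTORC1 and the protein Larp1 control their translation. When assembly is disturbed, free Rpl5 and Rpl11 can bind the ubiquitin ligase Mdm2 and stabilise p53.

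Start sites are shown first. Runs of C and T there were more common among these genes than among all promoters, and were not used to choose the genes. RefSeq promoters of the rat assembly GRCr8 were matched by Entrez gene number for 41 of the 48 genes, and the first listed promoter of each gene was kept. Each line is the strand of the gene, 5′ to 3′, 30 bases long, with 15 bases before the annotated start and 15 from it on, and capitals mark the longest run of C and T. The first 5 genes had runs of 15 to 20 bases, the next 3 had shorter runs that span the start, and the last 3, the gene with the largest rise and a pair of paralogs, had runs of only 5 bases.
Rpl34: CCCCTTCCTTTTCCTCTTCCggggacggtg
Rpl35: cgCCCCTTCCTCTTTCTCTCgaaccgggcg
Rps23: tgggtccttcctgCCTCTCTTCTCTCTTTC
Rps24: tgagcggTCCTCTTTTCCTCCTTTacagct
Rpl22: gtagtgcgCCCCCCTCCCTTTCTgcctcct
Rpl19: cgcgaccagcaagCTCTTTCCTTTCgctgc
Rps15: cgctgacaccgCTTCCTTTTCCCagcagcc
Rplp0: gaccgcaccgcaCTTCTCTCgccaggcgtc
Rpl3: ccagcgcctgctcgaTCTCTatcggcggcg
Rpl7l1: agctgcagatgcattgtgggaagCCTTTaa
Rpl26l1: aaatgtcaTTTCCgggcctgcgcacacacc

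These windows lie, in GRCr8, at chr2:221962269-221962298 on the minus strand for Rpl34, chr3:43165907-43165936 on the minus strand for Rpl35 and chr2:23814502-23814531 on the plus strand for Rps23. Rps24 is at chr16:96502-96531 and Rpl22 at chr5:168117946-168117975, both on the plus strand. Rpl19 is at chr10:83519049-83519078 on the plus strand, Rps15 at chr7:10068101-10068130 and Rplp0 at chr12:46718376-46718405, the latter pair on the minus strand. Rpl3 is at chr7:113507976-113508005 on the minus strand, Rpl7l1 at chr9:21695703-21695732 on the plus strand and Rpl26l1 at chr10:17029014-17029043 on the minus strand.

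A run of at least 8 C or T stood in this window in 23 of the 41 genes (56.1%). It stood in 11.4% of all 33469 RefSeq promoters, and in 9 of 65 promoters (13.8%) of 63 genes for mitochondrial ribosomal proteins. In these 2 comparison sets a gene can have several promoters, since all 33469 belong to 27457 genes. Among the 41 genes, the run was present in 57.6% of the 33 called higher at 50 mg/kg in the tests below. It was present in 50% of the other 8, and this difference was not tested. A C exactly at the annotated start with at least 4 more C or T behind it was found in 11 of 41 genes (26.8%), against 2.63% of all promoters. The annotated start need not be the one used in kidney, so a window without a run says nothing about the message itself. Motifs were searched on both strands in the 300 bases from 250 before to 50 after the start. The ETS core CCGGAAG was present in 24.4% of the genes and 8.75% of all promoters, the YY1 core AAGATGG in 19.5% and 7.01%, and the SP1 core GGGCGG in 61.0% and 33.1%. The shares were nearly alike for the E-box CACGTG (7.32% and 6.42%) and for the letters TATAAA (14.6% and 14.2%). These are matches of letters and no sign that a factor binds.

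Of the 48 genes, 43 had a mean log2 intensity of at least 5 and were tested, 29 of the large and 14 of the small subunit. All 43 also passed that minimum in the vehicle group alone, with a lowest vehicle mean of 5.69, so none entered through a high treated group. The 5 genes under it were Rpl28 with a mean of 3.99, Rpl30 with 3.06, Rpl39l1 with 3.26, Rpl3l with 3.40 and Rps13 with 4.92. For Rpl28, Rpl30 and Rps13, which are not paralogs, a low value may reflect a probe set that reads its message poorly. This was not tested. Of the whole table, 10337 genes were tested with limma, and p-values were adjusted over all of them by Benjamini-Hochberg and called under 0.05.

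At 50 mg/kg most ribosomal protein messages were higher than in vehicle, by a similar and moderate amount in both subunits. In the limma fit 38 of the 43 genes rose and 0 fell (0 also at an unadjusted p under 0.05), which is 27 of 29 genes of the large subunit and 11 of 14 of the small. The background was 19.6% of all tested genes called higher and 11.4% called lower. The median difference over the 43 genes was 0.51, a 1.42-fold higher intensity, against 0.05 over all tested genes. It was 0.48 over the large and 0.61 over the small subunit, and this difference between subunits was not tested. The called rises ran from 0.34 to 0.90 (1.27-fold to 1.87-fold), so no gene doubled, and their adjusted p-values ran from 0.00262 to 0.0406. The count for the large subunit fell from 27 to 17 when CMS50 replicate 2 was left out, while the direction of every gene stayed the same. In whole-kidney RNA, more cells of a type that is rich in these messages and more message per cell cannot be told apart.

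**Figure D1:**
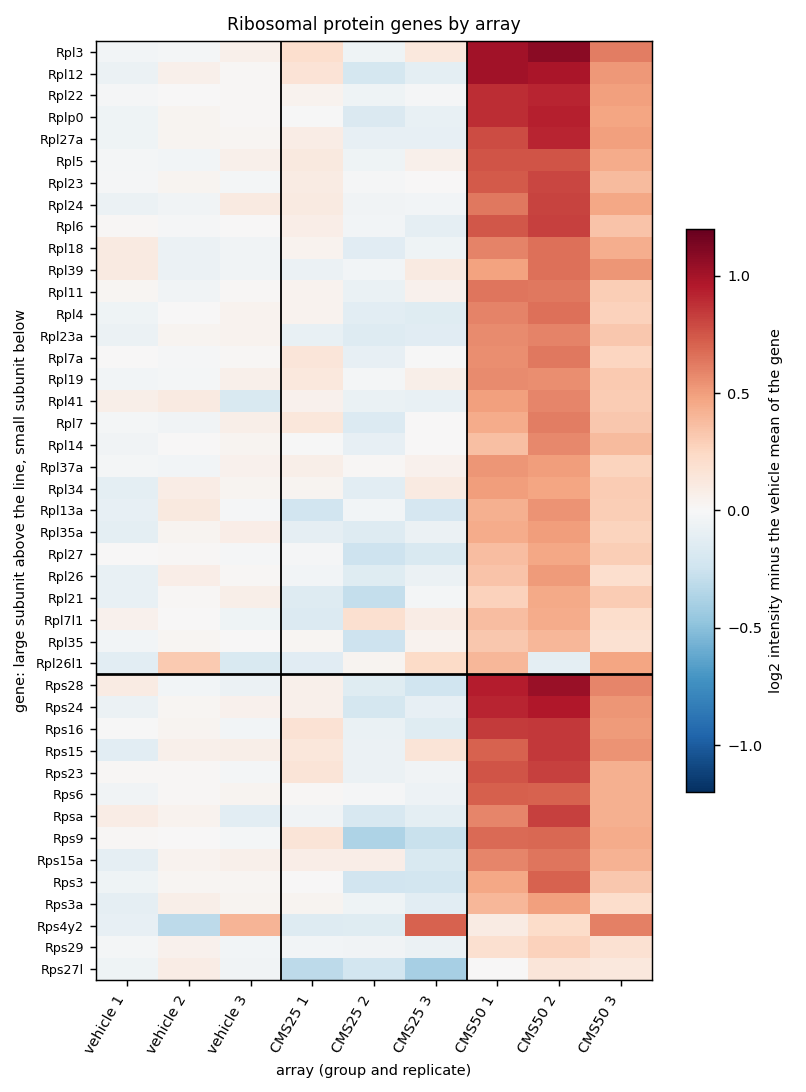
Heat map of the 43 tested genes (rows, large subunit above the line and small subunit below it) on the 9 arrays (columns). Colour gives the log2 intensity minus the vehicle mean of the same gene, on a scale from blue (lower) to red (higher). The CMS50 columns are red in nearly every row, palest in replicate 3, and the CMS25 columns are pale in both colours.

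The rise was present on each of the 3 CMS50 arrays. The median deviation from the vehicle mean over large subunit genes was 0.56, 0.61 and 0.32 on CMS50 replicates 1, 2 and 3, and over small subunit genes 0.64, 0.71 and 0.43. Replicate 3 was the lowest CMS50 array in 37 of 43 genes and replicate 2 the highest in 35. Even so, replicate 3 lay above all vehicle arrays in 43 of 43 genes. The CMS50 and vehicle arrays did not overlap in 40 genes, 28 large and 12 small, where 30.6% of all tested genes were higher without overlap. The exceptions were Rpl26l1, Rps27l and Rps4y2. Spread was wider with treatment: the median SD over the 43 genes was 0.0517 in vehicle, 0.103 in CMS25 and 0.155 in CMS50, and the CMS50 SD exceeded the vehicle SD in 39 genes.

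Rpl3, which lies close to the peptide-bond-forming centre, had the largest rise. Its log2 intensities were 12.23, 12.24 and 12.32 in vehicle, 12.47, 12.21 and 12.39 in CMS25, and 13.27, 13.35 and 12.88 in CMS50. All CMS50 arrays were above every other array, while CMS25 and vehicle overlapped. The difference from vehicle was 0.90 (SE 0.13, adjusted p = 0.00262).

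The stalk of the large subunit recruits translation factors, and Rplp0 and Rpl12 form its base. For Rplp0 the arrays read 12.21, 12.29 and 12.28 in vehicle, 12.26, 12.09 and 12.17 in CMS25, and 13.15, 13.19 and 12.73 in CMS50, a difference of 0.76 (SE 0.12, adjusted p = 0.00363). For Rpl12 they read 11.65, 11.78 and 11.73, then 11.88, 11.50 and 11.61, then 12.72, 12.69 and 12.23 in the same order of groups. Its difference was 0.83 (SE 0.15, adjusted p = 0.00491). In both genes the CMS50 arrays stood apart from the other 6, with replicate 3 about midway.

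Rpl5 and Rpl11 bind the 5S ribosomal RNA and, when free, Mdm2. Rpl5 gave 12.76, 12.76 and 12.85 in vehicle, 12.91, 12.74 and 12.85 in CMS25, and 13.54, 13.55 and 13.24 in CMS50 (difference 0.65, SE 0.10, adjusted p = 0.00349). Rpl11 gave 12.53, 12.47 and 12.53, then 12.55, 12.43 and 12.56, then 13.16, 13.15 and 12.81 (difference 0.53, SE 0.11, adjusted p = 0.00778). Both rose at 50 mg/kg, and at 25 mg/kg their arrays lay among the vehicle arrays or within 0.1 of them.

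Other large subunit proteins with known roles outside the ribosome moved the same way. Rpl22, which binds structured RNA and is important for T cell development, read 11.66, 11.68 and 11.69 in vehicle, 11.72, 11.63 and 11.66 in CMS25, and 12.57, 12.59 and 12.17 in CMS50. Its difference of 0.77 (SE 0.11, adjusted p = 0.00296) stood beside an SD of 0.0165 in vehicle and of 0.233 in CMS50. Rpl13a, which can leave the ribosome to silence inflammatory messages, read 11.95, 12.16 and 12.04 in vehicle and 12.47, 12.59 and 12.35 in CMS50 (difference 0.42, SE 0.10, adjusted p = 0.0147).

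Rpl26, which can bind the p53 message, read 12.89, 13.07 and 13.00 in vehicle and 13.33, 13.50 and 13.19 in CMS50. The difference of 0.36 (SE 0.10, adjusted p = 0.0252) was one of the smaller called ones. For Rpl13a and Rpl26, the call was lost without vehicle replicate 1 or CMS50 replicate 2, and for Rpl26 also without vehicle replicate 3 or CMS50 replicate 1, with adjusted p-values of at most 0.0594 and 0.0925.

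In the small subunit, Rps28, which sits where the message leaves the ribosome, showed the largest rise. It read 11.90, 11.77 and 11.74 in vehicle, 11.86, 11.66 and 11.56 in CMS25, and 12.75, 12.84 and 12.39 in CMS50 (difference 0.85, SE 0.13, adjusted p = 0.00327). Rps24, needed to process the precursor of the small subunit RNA, read 12.22, 12.32 and 12.35, then 12.36, 12.09 and 12.20, then 13.21, 13.25 and 12.83 (difference 0.80, SE 0.13, adjusted p = 0.00334). Both genes had CMS50 arrays clear of the other groups. A second probe set of Rps24 differed by 0.18 (adjusted p = 0.525), and averaging both lowered its difference to 0.49.

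Rps6, the phosphorylated substrate of the S6 kinases, read 12.23, 12.29 and 12.31 in vehicle, 12.29, 12.26 and 12.22 in CMS25, and 13.00, 12.99 and 12.70 in CMS50, a difference of 0.62 (SE 0.10, adjusted p = 0.00327). Rps3, which lines the entry of the message channel and also acts in DNA repair, read 11.52, 11.59 and 11.59 in vehicle and 12.03, 12.28 and 11.89 in CMS50 (difference 0.50, SE 0.11, adjusted p = 0.0123). Rpsa, also known as the laminin receptor precursor, read 11.96, 11.92 and 11.75 in vehicle and 12.46, 12.70 and 12.30 in CMS50 (difference 0.61, SE 0.11, adjusted p = 0.00593). None of the 3 had an overlap between these groups.

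The other called genes lay within the same band. The 18 further genes of the large subunit differed by 0.35 to 0.73, from Rpl21 to Rpl27a, and the 6 of the small subunit by 0.37 to 0.74, from Rps3a to Rps16, all without overlap between CMS50 and vehicle. Rps15, Rps23 and Rps15a, core proteins of the small subunit, differed by 0.70, 0.66 and 0.54. Rpl23a, which helps form the docking site at the exit of the peptide tunnel, differed by 0.49, and Rpl41, the smallest ribosomal protein, by 0.46. Rps13, under the minimum and therefore not tested, read 5.08, 4.62 and 4.72 in vehicle and 5.33, 5.43 and 5.16 in CMS50.

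The paralogs are diverged copies of a ribosomal protein gene, and of those tested only Rpl7l1 was called at 50 mg/kg. Rpl7l1, which acts mainly in assembly of the large subunit, gave 8.53, 8.48 and 8.42 in vehicle and 8.84, 8.92 and 8.69 in CMS50, a difference of 0.34 (SE 0.11, adjusted p = 0.0406). That call was lost in 8 of 19 alternatives. Rpl26l1 differed by 0.25 (SE 0.19, adjusted p = 0.333) and Rps4y2 by 0.31 (SE 0.26, adjusted p = 0.405), with vehicle arrays of Rps4y2 ranging from 6.34 to 7.07 and the highest array of each group at 7.07, 7.36 and 7.26. Rpl3l and Rpl39l1 stayed under the minimum, with arrays from 3.12 to 3.59 and from 3.06 to 3.52.

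Rps27l, a copy of Rps27 that is known as a p53 target, had another order of groups. Its arrays read 6.45, 6.59 and 6.46 in vehicle, 6.18, 6.27 and 6.09 in CMS25, and 6.50, 6.64 and 6.62 in CMS50. The CMS25 arrays were below all others, whereas vehicle and CMS50 overlapped. The differences from vehicle were 0.09 (SE 0.09, adjusted p = 0.456) at 50 mg/kg and -0.31 (SE 0.09, adjusted p = 0.751) at 25 mg/kg, neither called, while CMS50 was higher than CMS25 by 0.41 (SE 0.09, adjusted p = 0.0103).

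Rps29 and Rpl35 were the remaining uncalled genes. Rps29 read 13.98, 14.06 and 13.98 in vehicle and 14.20, 14.28 and 14.19 in CMS50, without overlap, a difference of 0.22 (SE 0.07, adjusted p = 0.0507). Rpl35 read 12.49, 12.55 and 12.52 against 12.85, 12.92 and 12.70, a difference of 0.30 (SE 0.10, adjusted p = 0.0511). Both lay just past the threshold.

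**Figure D2:**
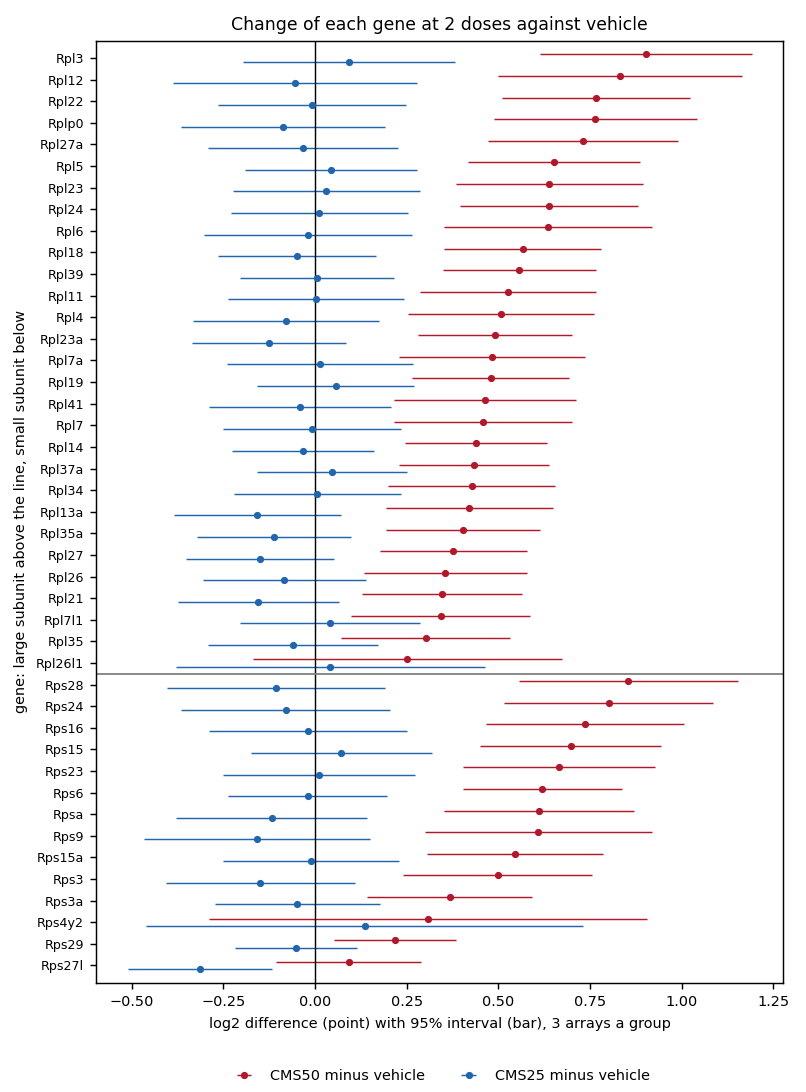
Log2 difference from vehicle (horizontal axis) of each of the 43 genes at 50 mg/kg (red) and 25 mg/kg (blue), with 95% intervals of the limma fit as bars and 3 arrays a group. The red points lie between 0.09 and 0.90, and the blue bars include 0 for 42 of 43 genes, the exception being Rps27l.

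At 25 mg/kg no ribosomal protein gene was called. In the limma fit 0% of all tested genes were called higher and 0% lower, so 0 members were called. At an unadjusted p under 0.05 there were 604 genes, 5.84% of all, and 1 of the 43 members, Rps27l, which was lower. The median difference from vehicle was -0.03 over the 43 genes and -0.02 over all tested genes. The arrays of CMS25 and vehicle did not overlap in 3 genes, all lower (Rpl23a, Rps27l and Rps29), and in 0 genes that were higher. The background for this was 7.65% of all tested genes lower and 4.45% higher. By array, the median deviation over large subunit genes was 0.04, -0.09 and -0.02 on CMS25 replicates 1, 2 and 3.

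The intervals bound how large a change at 25 mg/kg could be. In 41 of 43 genes the upper 95% bound at 25 mg/kg lay under the difference measured at 50 mg/kg. Over the 38 genes with a mean of at least 11, the differences at 25 mg/kg ran from -0.16 to 0.09, with bounds from -0.47 to 0.38. Both dose comparisons used the same 3 vehicle arrays.

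Set directly against each other, the doses differed in nearly every gene. CMS50 was higher than CMS25 in 40 of 43 genes and lower in 0, 27 of 29 large and 13 of 14 small, beside 20.8% of all tested genes called higher and 9.43% called lower. The arrays of these groups did not overlap in 41 genes, beside 30.4% of all genes higher without overlap. The median difference was 0.58, and adjusted p-values of the called genes ran from 0.00249 to 0.0282. The largest differences were 0.96 for Rps28, 0.89 for Rpl12, 0.88 for Rps24, 0.85 for Rplp0 and 0.81 for Rpl3. Rpl7l1 (0.30, adjusted p = 0.0618), Rpl26l1 (0.21, adjusted p = 0.412) and Rps4y2 (0.17, adjusted p = 0.644) were not called. This comparison shares its CMS50 arrays with the one against vehicle, and 37 genes were called in both. In the F test of any dose, 40 of 43 genes passed, beside 28.1% of all genes, and 26 passed without CMS50 replicate 2.

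Most of these probe sets had a high mean intensity, so they were set beside other genes of like intensity, a choice made after their values were seen. At a mean of at least 11 there were 38 members, of which 36 were called higher at 50 mg/kg. Of the 478 other genes in that range, 57 (11.9%) were called higher and 143 lower, with a median difference of -0.17. The other bright genes were called lower more often than higher, and 0 of the 38 members were called lower.

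**Figure D3:**
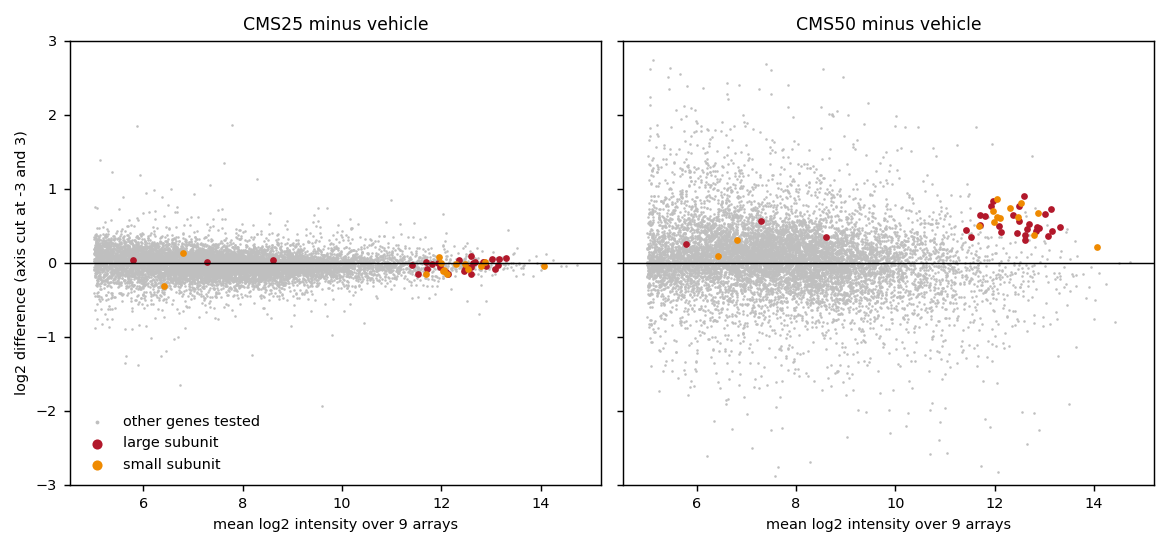
Log2 difference from vehicle (vertical axis) against mean log2 intensity over the 9 arrays (horizontal axis) at 25 mg/kg (left) and 50 mg/kg (right). Grey points are the other genes tested, red points the large and orange points the small subunit genes, and a few grey points lie beyond the axis. On the right the bright members sit in a band above 0, and on the left they lie around 0.

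Probe sets that the member rule left out were also read, a choice made after the main values were known. They come from the same arrays and RNA, so they are not an independent measurement. Of 36 probe sets annotated to several genes with at least 1 ribosomal protein among them, 35 passed the minimum, and 30 were called higher and 0 lower at 50 mg/kg (85.7%), where 15.1% of all 17447 probe sets were called higher. Their median difference was 0.61 at 50 mg/kg and -0.03 at 25 mg/kg. Ribosomal protein genes have many near-identical processed copies, so the probe sets of members may also bind RNA of copies, and the signal cannot be split between them.

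Members had 7 further probe sets of their own, 5 above the minimum. Rpl3 had a second reading of 0.76 (SE 0.08, adjusted p = 0.00174), and Rpsa had readings of 0.68 (adjusted p = 0.00598) and 0.85 (adjusted p = 0.00290) in this limma fit. The second probe set of Rps24, given above, had a mean intensity of 6.72 and an SE of 0.19. That of Rpl7l1 differed by 0.22 (adjusted p = 0.103). The second probe sets of Rpl14 and Rpl7 were under the minimum.

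Rack1, a scaffold protein of the small subunit that carries another kind of symbol, read 10.96, 10.98 and 11.11 in vehicle, between 10.97 and 11.03 in CMS25, and 12.08, 12.09 and 11.60 in CMS50 (difference 0.91, SE 0.13, adjusted p = 0.00288). A list of 14 other genes whose messages carry a TOP tract holds mostly translation factors. Of these, 12 rose (85.7%, beside 19.6% of all tested genes) and 0 fell against vehicle, with a median of 0.40, and 14 of 14 were higher than in CMS25, beside 20.8% of all genes. Their likeness to the ribosomal protein genes was not tested. The largest rises were 1.06 for Nap1l1, a histone chaperone, 0.81 for Eif3f, a subunit of an initiation factor, and 0.74 for Eef1g, a subunit of the elongation factor that reloads its partner with GTP. Eif3l (0.33) and Eif4b (0.31) were not called.

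Of 33 other translation factors, 6 rose (18.2%, close to the 19.6% of all tested genes) and 2 fell, with a median of 0.09. The rises were led by Eif3d (0.59), Eif2b3 (0.58) and Eif4a1 (0.53), and the falls were Eif1b (-0.35) and Eif5b (-0.25). The difference between this list and the one before was not tested.

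Of 79 ribosome assembly factors that were tested, 17 rose and 3 fell, with a median of 0.19. The share of rises was close to the 19.6% of all genes. Rrp15 (0.82), Pes1 (0.77) and Nop53 (0.66), all of large subunit assembly, rose most. Imp3 and Nop10 fell by 0.33 each, and Gtpbp4, a GTPase of large subunit assembly, fell by 4.28 (SE 0.26, adjusted p = 0.000389 in limma), from 11.42, 11.59 and 11.60 in vehicle to 7.13, 7.03 and 7.61 in CMS50.

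The next 4 lists are small, and their counts stand beside 19.6% of all tested genes called higher and 11.4% called lower. For RNA polymerase I and its factors, 6 of 18 genes rose (33.3%) and 1 fell, with a median of 0.21. The polymerase subunits Polr1g (1.25), Polr1e (0.49) and Polr1a (0.43) rose most, and Polr2k, a subunit common to all RNA polymerases, fell by 0.32. Of the 19 genes of mTORC1 and the control of TOP messages, 2 rose (10.5%) and 0 fell, with a median of 0.04. They were Myc (2.28), a transcription factor on this list that is not a part of mTORC1, and Eif4ebp1 (0.63). Eif4ebp1 is an mTORC1 substrate that holds back the cap-binding factor. Of 5 genes of the Mdm2 and p53 branch, 1 rose (20%, near the background), the cell cycle inhibitor Cdkn1a (0.99). Of 11 genes of the eIF2 alpha kinases and their targets, 3 rose (27.3%), namely Asns (1.01), Eif2ak3 (0.67) and Ppp1r15a (0.48), and Ppp1r15b fell by 0.31.

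Of 73 tested genes for proteins of the mitochondrial ribosome, 2 rose (2.74%, beside 19.6% of all tested genes) and 9 fell at 50 mg/kg, with a median of -0.10. Their share of falls was close to the 11.4% of all genes, and their difference from the cytosolic proteins was not tested. Of 34 proteasome subunits, 3 rose (8.82%) and 0 fell, with a median of 0.04. At 25 mg/kg 0 genes of any of these lists were called, as for all tested genes.

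**Figure D4:**
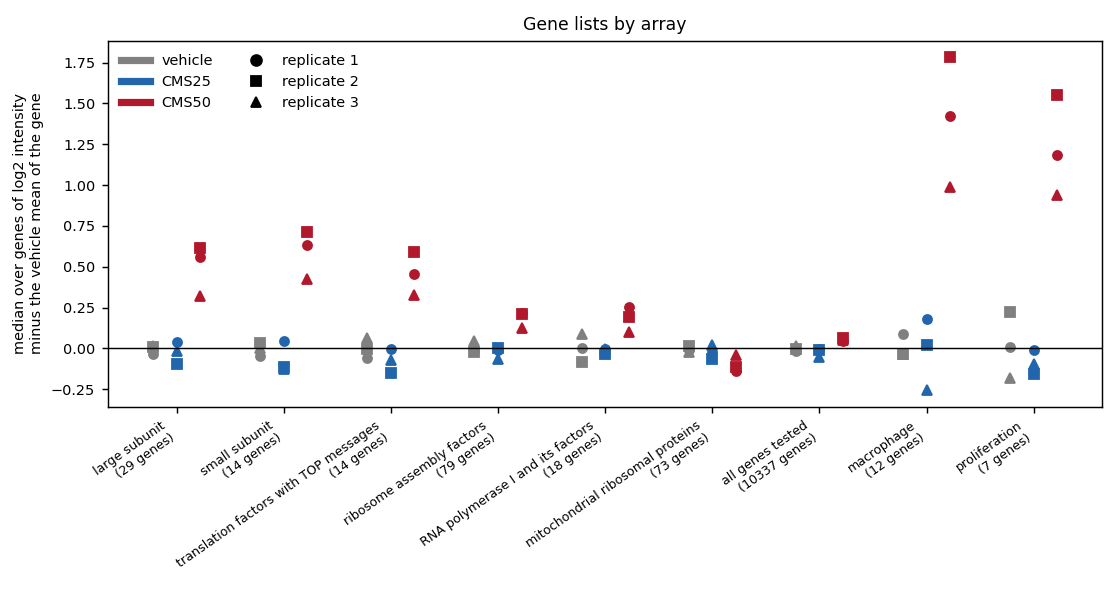
Median over the genes of a list of log2 intensity minus the vehicle mean of the gene (vertical axis), for 1 point per array; colour gives the group and shape the replicate number. The CMS50 points of both subunits and of the list of TOP messages lie above 0.3, those of the mitochondrial ribosomal proteins lie below 0, and macrophage and proliferation genes are shifted further, between 0.94 and 1.78.

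Markers of other cells moved in the same samples. Of 13 macrophage genes on the array, 12 were tested and all 12 rose at 50 mg/kg, beside 19.6% of all tested genes. Their median difference was 1.45. Their mean level per array ranged from 6.64 to 6.85 in vehicle, from 6.36 to 6.88 in CMS25 and from 7.76 to 8.64 in CMS50. Of 7 proliferation genes, 6 rose (85.7%, beside the same 19.6%), with a median of 1.37, and the ranges were 5.62 to 6.07, 5.71 to 5.84 and 6.85 to 7.55. The minimum was set on the mean over all 9 arrays. A gene of these lists that is low in vehicle could therefore pass through its CMS50 arrays, which favours a call. On the CMS50 arrays, replicate 2 was highest and replicate 3 lowest in both lists and in both ribosomal subunits. This order was not particular to them. The list of TOP messages also had it, with median deviations of 0.45, 0.59 and 0.33 on replicates 1, 2 and 3. Ribosome assembly factors (0.22, 0.21 and 0.13) were highest on replicate 1. The part of the macrophage and proliferation genes in the rise of the ribosomal protein genes was not tested.

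Among lymphocyte genes only Cd3e passed the minimum out of 7 on the array (difference 0.68, called). It read 4.9, 4.9 and 4.6 in vehicle, under the minimum of 5, and 5.6, 5.1 and 5.8 in CMS50. Since Cd3e passed only through its CMS50 arrays, the filter favoured this call and no conclusion is drawn from it. The blood genes Hbb (-2.84) and Alas2 (-1.46) both fell, and 0 of 3 adipose genes were called. The kidney label was borne out by its markers, of which 8 had probe sets of their own and 8 passed. Of these, Pax8 (0.76) and Cdh16 (0.43) rose and Umod (-1.27) and Slc12a1 (-0.79), both of the thick ascending limb, fell at 50 mg/kg.

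RNA quality was read as the log2 intensity of the 3′ minus the 5′ control probe set of a gene, which grows as RNA shortens. For beta-actin it was 2.98 ± 0.155 (SD, n = 3) in vehicle, 3.17 ± 0.120 in CMS25 and 3.58 ± 0.0854 in CMS50. For GAPDH it was 0.542 ± 0.0286, 0.698 ± 0.209 and 0.816 ± 0.0622. CMS50 against vehicle gave p = 0.1 for each in the exact two-sided permutation test, which is the smallest p that 3 against 3 arrays allow. The part of this shift in the differences above was not tested.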

How the data were processed

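Kidney RNA of 9 rats was measured, 1 array each. The deposited values are on the log2 scale and, per the submitters' processing notes, come from RMA in Affymetrix Expression Console, for which no version was found. RMA aligns the arrays by quantiles, so a shift shared by all genes cannot be seen. Values were used as deposited, with 31099 probe sets and 0 missing values. Precision is limited by 3 arrays a group, and the labels give no batch.

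Symbols came from the platform annotation, and 46 of 48 members are in the current RefSeq table. Promoters are RefSeq sequences of GRCr8.

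A single limma model (version 3.58.1 under R 4.3.3, lmFit and eBayes) held all 3 groups and gave two-sided tests, with Benjamini-Hochberg adjustment over 10337 genes. The fit was tested on simulated data.

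Members and lists were chosen with earlier results of these data known. Members named with values are the 5 largest called changes in each comparison and a panel of well-studied proteins and paralogs. Some other called members, such as Rps15, Rps23, Rps15a, Rpl23a and Rpl41, are given outside this rule with their difference only. Of other lists, up to 3 called rises and falls are named. Members that were not called or lay under the minimum, and further probe sets, were named after their values were seen.

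Alternatives were other scalings, other minimums, the mean of the probe sets, trend and robust fitting, array weights, a replicate block, fewer groups and leaving out each array. The labels do not say whether the replicate numbers pair the arrays, so the main model did not use them.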

Additional observations from a re-analysis of the deposited data

How the results depend on the processing

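All 43 tested members were higher in CMS50 than in vehicle and than in CMS25 under every alternative run, and 26 and 31 of them were called under all. In CMS25 against vehicle, 0 genes were called under each. Leaving out 1 array moved the counts most. The genes called between CMS50 and vehicle (3211) then ranged from 1687 to 3546, with 1852 when vehicle replicate 2 was left out, and 1711 or 1687 when CMS50 replicate 1 or 2 was. Between CMS50 and CMS25 (3128) the range was 1569 to 3518, with 2008 when CMS25 replicate 3 was left out, and 1737 or 1569 when CMS50 replicate 1 or 2 was. In these fits with 1 array left out, large subunit genes called higher than in vehicle ranged from 17 to 28 and small subunit genes from 10 to 11. Members past the F test ranged from 26 to 39. With array weights and all arrays kept, 12 small subunit genes were called higher and 41 members passed the F test. The medians against vehicle ranged from 0.44 to 0.57 in the large and from 0.54 to 0.70 in the small subunit. With the replicate number as a block, 26 large and 11 small subunit genes and 2865 genes in all were called against vehicle, so no count moved by over 1.5 times. Deviations of same-numbered arrays correlated between -0.18 and 0.26, above 0.1 in 3 of 9 pairs. Without the 4 paralogs Rpl7l1, Rpl26l1, Rps27l and Rps4y2, left out after seeing the data, 26 and 11 genes were called. The cause of these shifts, beyond fewer arrays, was not tested.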
